A study of Rattus norvegicus with 24 samples.

Results

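The 10 genes described here encode proteins that end signalling by opioid receptors: the receptor kinases Grk2, Grk3, Grk5 and Grk6, the beta-arrestins Arrb1 and Arrb2, the regulator of G protein signalling Rgs4, and the complex of Rgs7 with its anchor Rgs7bp and its obligate partner Gnb5. They were taken by symbol from 2 deposited tables of 37403 genes each, 1 per brain region, and each symbol occurred in both tables. RNA came from tissue punches of the ventral tegmental area (VTA) and the nucleus accumbens (NAC) of first-generation male rats, at postnatal day 60 or older. Their fathers had self-administered morphine (MOR-sired) or saline (SAL-sired) for 60 days, and the labels give no drug treatment of the offspring themselves. VTA was represented by 5 libraries of MOR-sired and 5 of SAL-sired rats, and NAC by 7 of MOR-sired and 7 of SAL-sired rats. The labels call these biological replicates but name no animal or litter, and a p-value here reflects library-to-library spread alone. It is not stated whether the VTA and NAC punches came from the same rats.

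When an agonist binds the mu opioid receptor, G protein-coupled receptor kinases phosphorylate the receptor tail, and beta-arrestins then bind it, uncouple it from the G protein and hand it to clathrin for internalisation. RGS proteins act one step later: they speed up GTP hydrolysis by the G protein alpha subunit, so that signalling to potassium channels, calcium channels and adenylyl cyclase stops sooner. Rgs7 belongs to the R7 family, whose members are stable only when paired with the atypical beta subunit encoded by Gnb5, and Rgs7bp holds that pair at the plasma membrane. In the VTA, opioids act largely on GABA neurons that restrain dopamine neurons, and in the NAC they act on medium spiny neurons and on the terminals that reach them.

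Values are given as CPM, a gene's estimated count per 1000000 of its library, and the authors made those counts from length-corrected abundances, so levels may be compared between genes. The library totals were 23.6 to 43.5 M estimated counts in VTA and 21.9 to 41.3 M in NAC. The lowest estimated count of any of the 10 genes was 234, for Grk3 in MOR-sired NAC 4. These are scaled abundances, so counting error cannot be read from them. Summed dopamine neuron markers (10 genes, Th and Slc6a3 among them) lay between 3657 and 8192 CPM in VTA and between 35.3 and 111 CPM in NAC. The sum of 12 striatal medium spiny neuron markers lay between 298 and 463 CPM in VTA. Across NAC it ran from 572 CPM in MOR-sired NAC 2 to 7248 CPM in MOR-sired NAC 4, while 10 markers of cortical glutamatergic neurons summed to between 191 and 1939 CPM, so the NAC punches differed widely in what they held. Among the VTA libraries, SAL-sired VTA 2 stood apart with 208 CPM of the cortical markers, against 55.3 to 70.9 CPM in the other 9. The serotonin neuron markers (6 genes) summed to 114 to 284 CPM in MOR-sired VTA and 11.8 to 106 CPM in SAL-sired VTA. Although the rats are described as male, 4 VTA libraries (MOR-sired VTA 3, MOR-sired VTA 4, MOR-sired VTA 5 and SAL-sired VTA 5) carried Xist and lacked Ddx3y, and fold changes and slopes in VTA without them are given beside the main results.

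In VTA the arrestin Arrb1 and the kinase Grk2 were the most abundant of the 10 transcripts, with medians of 142 and 134 CPM. Arrb1 exceeded Grk2 in 9 of 10 libraries, and Grk2 exceeded Gnb5 (median 106 CPM) in 10 of 10. Next came Rgs7 at 65.3, Grk6 at 58.1 and Arrb2 at 52.2 CPM, and then Grk3 at 40.5 and Rgs7bp at 36.5 CPM. These last 2 were not ordered consistently, since Grk3 was the higher one in 6 of 10 libraries. Rgs4 (26.0 CPM) and Grk5 (15.8 CPM) were the scarcest, with Rgs4 above Grk5 in 10 of 10.

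The order in NAC was different at the top. Grk2 led with a median of 173 CPM, and Rgs7bp (162 CPM), Rgs4 (158 CPM) and Gnb5 (154 CPM) followed without a fixed order. Rgs7bp exceeded Rgs4 in 6 of 14 NAC libraries and Rgs4 exceeded Gnb5 in 8 of 14. Below them stood Arrb1 at 135, Rgs7 at 72.1, Arrb2 at 60.5 and Grk6 at 57.2 CPM. Grk3 (32.8 CPM) and Grk5 (19.9 CPM) were lowest. The sum of the 10 genes within a library had a median of 706 CPM in VTA and 1015 CPM in NAC.

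**Figure D1:**
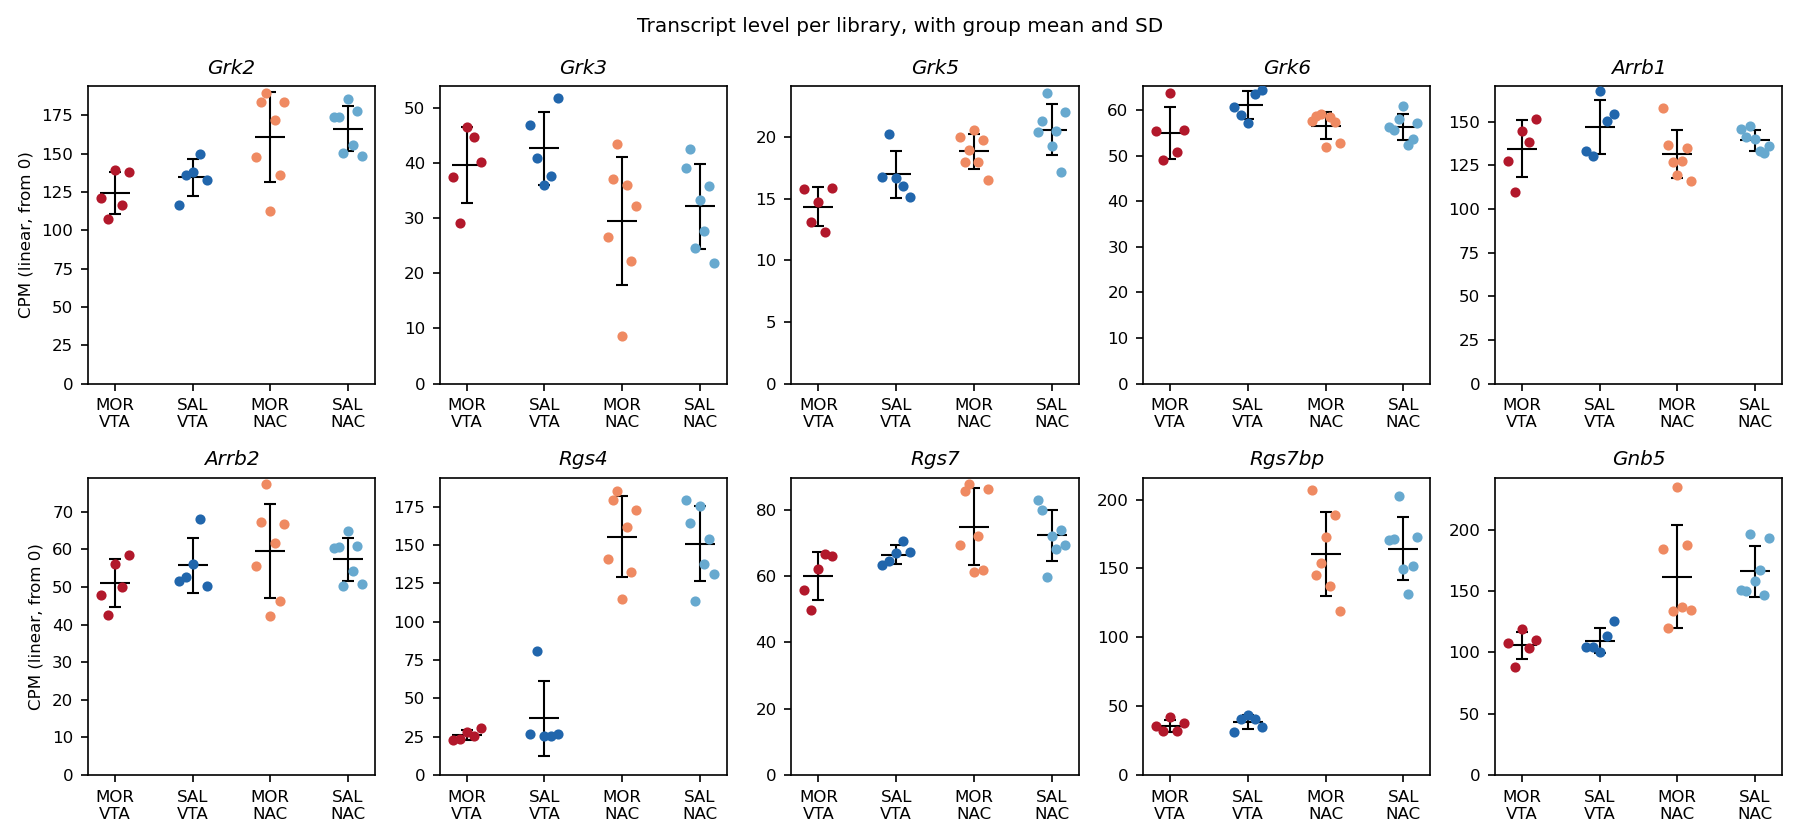
CPM of each gene in every library (points) with the group mean and SD (black), on linear axes from 0, for MOR-sired VTA, SAL-sired VTA, MOR-sired NAC and SAL-sired NAC. Rgs4 and Rgs7bp separate the regions, with VTA maxima of 80.9 and 43.9 CPM under NAC minima of 113 and 119 CPM, while the sire groups overlap for each gene in both regions.

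The first comparison set VTA against NAC. Of the 10 genes, 6 were lower in VTA (edgeR quasi-likelihood test, adjusted p under 0.05) and none was higher, whereas 34.7% of the 20603 genes tested were lower and 34.3% higher, and 69.0% differed in either direction. A region difference is thus the usual state of a gene here, and the 10 genes are described by its size. The median log2 fold change of all genes was 0.02. In bulk tissue, fewer cells of a type and less RNA per cell cannot be told apart. The NAC libraries carry numbers 1 to 14 and the VTA libraries numbers 25 to 37. Region and library set therefore cannot be told apart in this comparison.

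Rgs4, a regulator that acts on the inhibitory G proteins used by opioid receptors, differed most. It had 22.5, 23.6, 28.1, 25.3 and 30.4 CPM in MOR-sired VTA and 26.6, 80.9, 25.4, 25.2 and 26.8 CPM in SAL-sired VTA. In NAC its lowest, median and highest values were 115, 161 and 185 CPM in MOR-sired and 113, 154 and 179 CPM in SAL-sired rats. Each VTA library lay under each NAC library, and within VTA a single one, SAL-sired VTA 2, lay far above the rest. The log2 fold change of VTA over NAC was −2.35 (SE 0.18, 95% interval −2.71 to −1.98, adjusted p = 5.48e-11). Without SAL-sired VTA 2 it was −2.59 (SE 0.10).

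Rgs7bp, the membrane anchor of the Rgs7 complex, differed almost as much. Its CPM were 35.6, 32.1, 42.2, 31.6 and 37.5 in MOR-sired VTA and 31.2, 40.9, 43.9, 40.8 and 34.8 in SAL-sired VTA. In NAC it had 119, 154 and 207 CPM (lowest, median, highest) in MOR-sired and 131, 171 and 203 CPM in SAL-sired rats. No VTA library reached the lowest NAC library, as with Rgs4, and 12.8% of the genes tested showed that pattern of each VTA library under each NAC library. The log2 fold change was −2.17 (SE 0.09, 95% interval −2.35 to −1.99, adjusted p = 8.53e-16).

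The partners of Rgs7bp among the 10 genes, Gnb5 and Rgs7, differed far less between the regions. Gnb5, which encodes the beta subunit that stabilises Rgs7, had 107, 88.4, 119, 103 and 110.0 CPM in MOR-sired VTA and 104, 104, 100.4, 114 and 126 CPM in SAL-sired VTA. Its NAC values were 119.6, 137 and 235 CPM (lowest, median, highest) in MOR-sired and 147, 158 and 197 CPM in SAL-sired rats. The regions overlapped only at the edge, with 0 of 10 VTA libraries above the NAC median, and the log2 fold change was −0.64 (SE 0.09, adjusted p = 1.88e-06). Rgs7 itself ranged from 49.7 to 70.6 CPM in VTA and from 59.8 to 87.8 CPM in NAC, a log2 fold change of −0.26 (SE 0.07, adjusted p = 0.00252).

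The ratios within a library show the same uneven change. Rgs7bp over Rgs7 was 0.475 to 0.679 in MOR-sired VTA, 0.494 to 0.656 in SAL-sired VTA, 1.38 to 3.04 in MOR-sired NAC and 1.92 to 3.39 in SAL-sired NAC. Anchor transcript was therefore scarcer than Rgs7 transcript in each VTA library and more abundant in each NAC library. Gnb5 exceeded Rgs7 in each library of both regions, by 1.5 to 1.92 times in VTA and 1.40 to 3.84 times in NAC.

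Among the kinases, Grk2 and Grk5 were lower in VTA by a similar log2 amount from very different levels. Grk2, the widely expressed kinase that is drawn to the membrane by free beta-gamma subunits, had 121, 108, 139, 116 and 138 CPM in MOR-sired VTA and 116, 136, 138, 149.7 and 132 CPM in SAL-sired VTA. The NAC values were 112, 172 and 189.9 CPM (lowest, median, highest) in MOR-sired and 148, 174 and 185 CPM in SAL-sired rats. VTA and NAC ranges overlapped, again with 0 of 10 VTA libraries above the NAC median, and the log2 fold change was −0.38 (SE 0.08, adjusted p = 0.000166). For Grk5, a kinase that binds membrane lipid without beta-gamma subunits, the log2 fold change was −0.37 (SE 0.05, adjusted p = 1.27e-06), with 12.3 to 20.2 CPM in VTA and 16.5 to 23.6 CPM in NAC.

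Grk3, the close relative of Grk2, stood the other way round. It had 37.5, 29.1, 46.4, 44.7 and 40.1 CPM in MOR-sired VTA and 46.9, 40.8, 36.0, 37.7 and 51.8 CPM in SAL-sired VTA. NAC libraries had 8.59, 32.2 and 43.4 CPM (lowest, median, highest) in MOR-sired and 21.9, 33.4 and 42.5 CPM in SAL-sired rats. In 9 of 10 VTA libraries Grk3 was above the NAC median, but the ranges overlapped and the log2 fold change of 0.38 (SE 0.18, 95% interval 0.01 to 0.75) did not pass (adjusted p = 0.066). It passed with DESeq2 (adjusted p = 0.0419) and without SAL-sired NAC 2 (0.0476), MOR-sired NAC 3 (0.0305) or MOR-sired NAC 4 (0.0349). It was 0.22 (SE 0.24, adjusted p = 0.437) without the 4 VTA libraries with Xist. Without those libraries the 6 genes called in VTA against NAC were called again, with Rgs4 at −2.37, Rgs7bp at −2.18, Gnb5 at −0.71, Grk2 at −0.42, Grk5 at −0.34 and Rgs7 at −0.34. The ratio of Grk3 to Grk2 separated the regions, but by a narrow margin. It was 0.270 to 0.384 in MOR-sired VTA and 0.252 to 0.403 in SAL-sired VTA. In NAC it was 0.0765 to 0.228 in MOR-sired and 0.148 to 0.244 in SAL-sired rats. How often the ratios of other gene pairs separate the regions was not counted.

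The remaining kinase and the arrestins were close to level. Grk6, the more abundant relative of Grk5, ranged from 49.1 to 64.5 CPM in VTA and from 51.8 to 60.9 CPM in NAC, and its log2 fold change was 0.00 (SE 0.04, 95% interval −0.08 to 0.08, adjusted p = 0.962). Arrb1, beta-arrestin 1, gave 0.02 (SE 0.05, 95% interval −0.08 to 0.12, adjusted p = 0.752), with 110.0 to 168 CPM in VTA and 116 to 158 CPM in NAC. Arrb2, beta-arrestin 2 and the arrestin best known from work on morphine in mice, had 42.6 to 68.2 CPM in VTA and 42.3 to 77.4 CPM in NAC. Its log2 fold change of −0.17 (SE 0.09, adjusted p = 0.0868) did not pass, but did with limma-voom (−0.23, adjusted p = 0.00558) and without MOR-sired NAC 4 (0.0267), MOR-sired NAC 6 (0.0427) or SAL-sired VTA 4 (0.0334). In no library did Arrb2 reach Arrb1: the ratio of Arrb2 to Arrb1 was 0.326 to 0.453 in VTA and 0.341 to 0.609 in NAC.

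**Figure D2:**
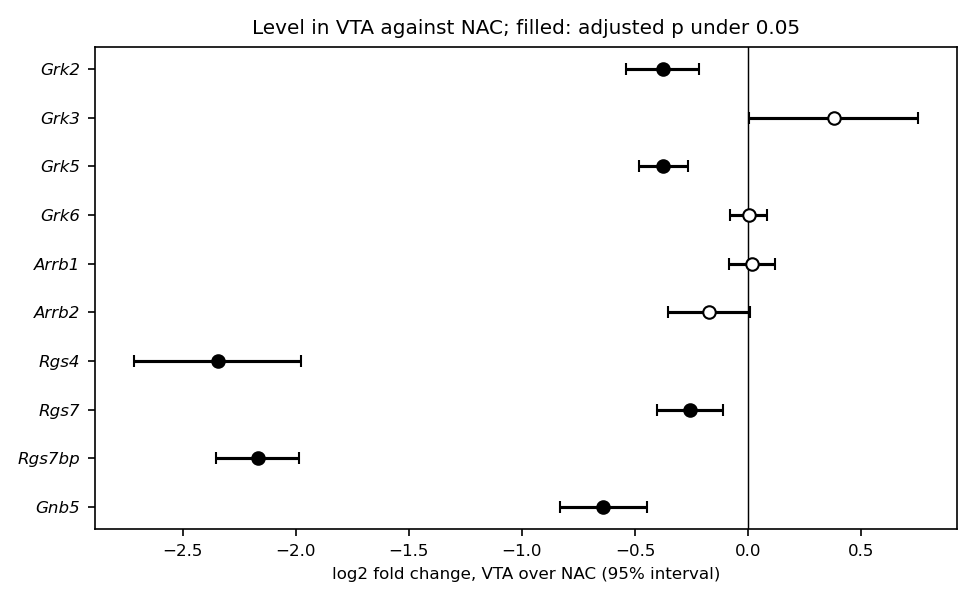
Log2 fold change of VTA over NAC for each gene, with the 95% interval, from the edgeR fit to 24 libraries; filled points passed an adjusted p of 0.05. Rgs4 (−2.35) and Rgs7bp (−2.17) lie far left of the other called genes, which run from −0.64 to −0.26, and Grk3 (0.38) lies to the right of 0 without passing.

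The promoters of Rgs4 and Rgs7bp are shown because these 2 genes differed most between the regions. The sequences are from RefSeq, assembly GRCr8, which may not be the build behind the deposited values, and promoters of 8 of the 10 genes were matched. Each runs 5′ to 3′ from 250 bases before the annotated start to 50 bases after it. Rgs4 lies on the minus strand at chr13:84475835-84476134 and Rgs7bp on the minus strand at chr2:37965204-37965503. Capitals mark the TATA box (TATAAA), the CCAAT box (CCAAT) and the GC box (GGGCGG), each searched on both strands.
Rgs4: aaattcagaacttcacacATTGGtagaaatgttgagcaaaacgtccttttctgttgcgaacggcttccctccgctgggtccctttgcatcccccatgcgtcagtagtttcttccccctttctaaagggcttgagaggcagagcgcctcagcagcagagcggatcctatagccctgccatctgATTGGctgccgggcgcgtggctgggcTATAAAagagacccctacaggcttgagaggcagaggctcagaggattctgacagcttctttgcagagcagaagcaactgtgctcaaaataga
Rgs7bp: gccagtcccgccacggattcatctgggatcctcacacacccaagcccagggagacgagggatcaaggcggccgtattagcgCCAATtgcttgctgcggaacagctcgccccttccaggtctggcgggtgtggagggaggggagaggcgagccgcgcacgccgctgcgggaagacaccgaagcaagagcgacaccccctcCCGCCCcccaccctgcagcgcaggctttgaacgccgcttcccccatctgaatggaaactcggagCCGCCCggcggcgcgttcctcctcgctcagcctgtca

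The 2 promoters have little in common beyond the CCAAT box. Rgs4 has a TATA box whose first base is 42 bases before the start, which 14.3% of 27457 rat promoters have somewhere in the window and which 1 of the 8 promoters matched here has. It also holds CCAAT boxes on the reverse strand that begin 232 and 68 bases before the start, with 52.7% GC and 10 CpG dinucleotides (median of all promoters 52.3% and 7). Rgs7bp has 1 CCAAT box at 169 bases before the start, and reverse-strand GC boxes at 51 bases before and 13 bases after it, with 67.3% GC and 28 CpG. The CCAAT box occurs in 37.7% of all promoters and in 3 of these 8 (Grk6 is the third), and the GC box in 34.9% and in 6 of 8, with Rgs4 and Grk5 lacking it. The cyclic AMP response element TGACGTCA (1.91% of all promoters) was in 0 of 8 windows, and the E-box CACGTG (6.65%) in that of Rgs7 alone. These are matches of letters, with no measurement of binding.

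Around the 10 genes, the other genes of the pathway also differed between regions. Of the genes tested in 7 lists (other kinases and arrestins, other RGS proteins and R7 partners, opioid receptors, G protein subunits, effectors, protein kinase C and MAP kinases, and endocytosis), 36 were higher and 50 lower in VTA, with 15 not passing. Over all 20603 genes tested, 34.3% were higher and 34.7% lower. The median log2 fold change over these lists was −0.12, against 0.02 over all genes. Among the other RGS genes and R7 partners, 7 were higher and 8 lower. The largest changes were in Rgs14, at −5.67 (SE 0.14), and Rgs9, the striatal R7 relative of Rgs7, at −4.17 (SE 0.51). Of the 4 opioid receptor genes, 2 were higher and 2 lower in VTA. The lower ones were the delta opioid receptor Oprd1, at −3.10 (SE 0.22), and the mu opioid receptor Oprm1, at −0.78 (SE 0.23). Among effectors and kinases, the adenylyl cyclases Adcy1 (−2.64, SE 0.19) and Adcy5 (−2.23, SE 0.29) and the kinases Camk2a (−4.44, SE 0.21) and Prkce (−2.60, SE 0.10) were lower. The G protein gamma subunit Gng7, abundant in striatum, was at −4.61 (SE 0.45) and Gng11 at 1.35 (SE 0.09). In endocytosis, Nsf was lower (−1.05, SE 0.07) and the dynamin Dnm3 higher (0.94, SE 0.06), and among arrestin relatives Arrdc3 (0.98, SE 0.07) and Arr3 (0.94, SE 0.17) were higher.

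The second comparison, the one the study was designed for, set MOR-sired against SAL-sired rats within each region. In VTA 0 of the 10 genes passed, as did 0 of all 19923 genes (0%) tested with edgeR. At an unadjusted p under 0.05 there were 1058 genes, none of them among the 10, and the smallest adjusted p of any gene was 0.223. DESeq2 called 30 genes and limma-voom 0, with none of the 10 among them. The CPM ranges of the sire groups overlapped for each of the 10 genes, where 1.23% of the genes tested had ranges apart. The summed serotonin neuron markers did not overlap between the sire groups in VTA, as given above, and their part in these values was not tested.

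Rgs4 had the largest log2 fold change of the 10 between sire groups in VTA, and it rested on 1 library. It averaged 26.0 ± 3.23 CPM in MOR-sired and 37.0 ± 24.6 CPM in SAL-sired VTA (SD, n = 5 each), and 26.0 ± 0.807 CPM in the 4 SAL-sired libraries other than SAL-sired VTA 2. The log2 fold change of −0.42 (SE 0.32, 95% interval −1.13 to 0.30, adjusted p = 0.985 with edgeR) became 0.08 (SE 0.08) without that library, and it was −0.60 (SE 0.57) without the 4 libraries with Xist. SAL-sired VTA 2 also had the highest level of 8 of the 10 cortical glutamatergic markers among VTA libraries, including Slc17a7 at 84.5 CPM. The part of those markers in the Rgs4 value was not tested beyond this.

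Grk5 had the smallest unadjusted p of the 10 in VTA. It had 15.8, 13.1, 14.7, 12.3 and 15.9 CPM in MOR-sired and 16.8, 20.2, 16.7, 16.0 and 15.2 CPM in SAL-sired VTA. In plain CPM each MOR-sired library was below the SAL-sired median, as was also the case for Rgs7. The ranges of Grk5 overlapped, because SAL-sired VTA 5 lay below MOR-sired VTA 1 and 5. With scaling by library totals alone, the median log2 fold change of all genes in VTA was −0.09. The share of all genes with each MOR-sired library below the SAL-sired median was not counted. With TMM scaling, the log2 fold change of Grk5 was −0.16 (SE 0.08, 95% interval −0.34 to 0.02, adjusted p = 0.953 with edgeR). It was −0.09 (SE 0.07) without SAL-sired VTA 2 and −0.11 (SE 0.11) without the 4 libraries with Xist.

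For the other 8 genes the log2 fold changes in VTA lay between −0.07 (Grk6) and 0.03 (Gnb5). The intervals for Grk2 (−0.17 to 0.11), Arrb1 (−0.21 to 0.12), Arrb2 (−0.24 to 0.14), Rgs7 (−0.20 to 0.08) and Rgs7bp (−0.22 to 0.19) leave room for a moderate change either way. Leaving out the 4 libraries with Xist left 2 MOR-sired (library numbers 26 and 28) and 4 SAL-sired libraries (25, 27, 29 and 33). Libraries 25 to 28 had 23.6 to 27.3 M estimated counts, and 29 to 37 had 36.7 to 43.5 M. Sire and library set therefore cannot be fully told apart in that fit. Its fold changes were −0.18 (SE 0.13) for Arrb2, −0.17 (SE 0.07) for Rgs7, −0.13 (SE 0.10) for Arrb1, −0.12 (SE 0.13) for Grk3 and −0.08 (SE 0.10) for Grk2. They were −0.05 (SE 0.13) for Rgs7bp, −0.04 (SE 0.07) for Grk6 and 0.05 (SE 0.07) for Gnb5, and none of the 10 genes passed. Grk3 was the least certain of them, at −0.03 (SE 0.13, 95% interval −0.31 to 0.25). In plain CPM each of the 10 means was lower in MOR-sired VTA, including that of Gnb5, at 106 ± 11.3 CPM in MOR-sired and 109.7 ± 10.3 CPM in SAL-sired VTA (SD, n = 5 each). When libraries were scaled by their totals alone, the median of all genes in VTA was itself at −0.09.

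**Figure D3:**
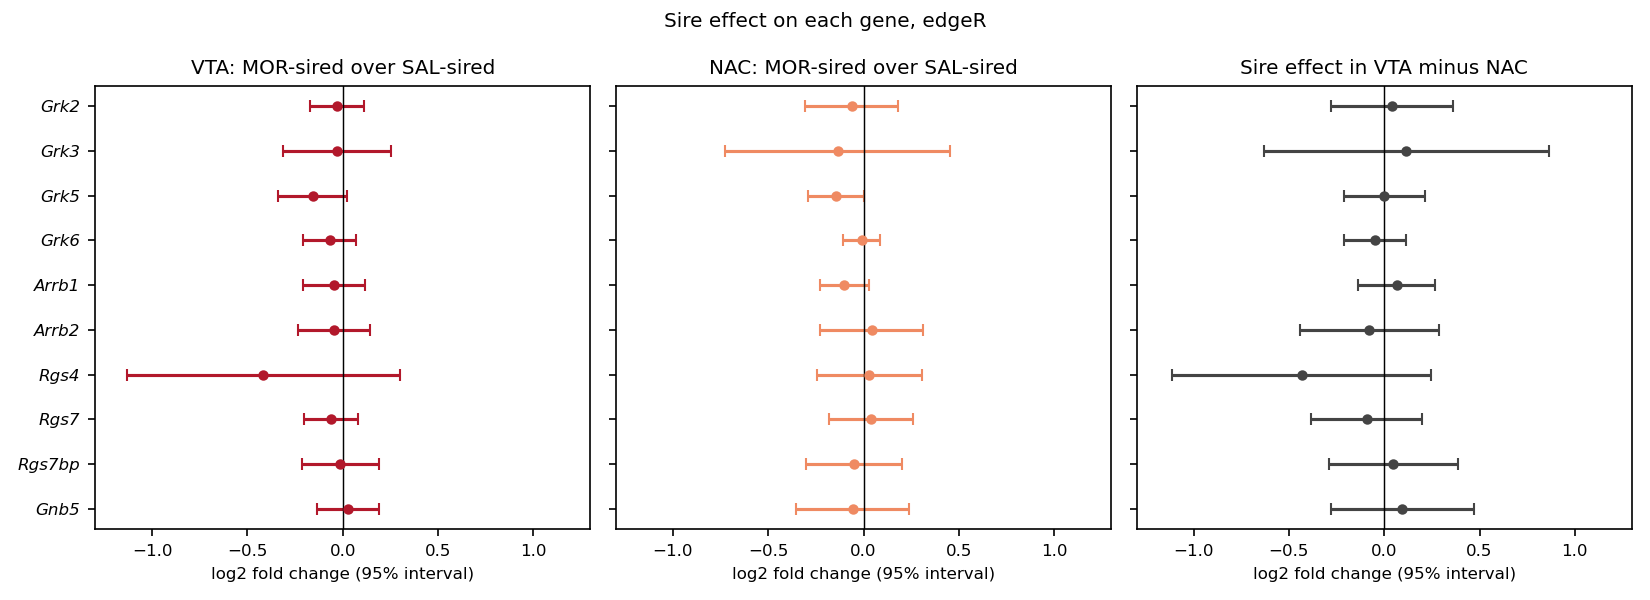
Log2 fold change of MOR-sired over SAL-sired rats in VTA (left) and NAC (middle) and the VTA minus NAC difference of these fold changes (right), with 95% intervals from edgeR. Every interval drawn includes 0, and those of Rgs4 in VTA (around −0.42) and of Grk3 in NAC (around −0.13) are the widest of their panels.

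In NAC the count was again 0 of 10, and 0 of 18220 genes (0%) passed with edgeR, where no adjusted p was below 0.56. Before adjustment, 1126 genes had a p under 0.05, and 800 of these were higher in MOR-sired NAC. DESeq2 called 4 genes, 3 higher and 1 lower, and limma-voom 52, 1 higher and 51 lower, none of them among the 10. The sire groups overlapped in CPM for each of the 10 genes, and 0.0823% of the genes tested had ranges apart. Grk5 came closest, with 16.5, 19.0 and 20.6 CPM (lowest, median, highest) in MOR-sired and 17.2, 20.5 and 23.6 CPM in SAL-sired NAC. In 1 of 7 MOR-sired libraries it was above the SAL-sired median, and the ranges overlapped. Its log2 fold change was −0.14 (SE 0.07, 95% interval −0.29 to 0.00, adjusted p = 0.779).

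Arrb1 had the next smallest p in NAC, at −0.10 (SE 0.06, 95% interval −0.23 to 0.03, adjusted p = 0.873). It had 116, 128 and 158 CPM (lowest, median, highest) in MOR-sired and 132, 140.3 and 147 CPM in SAL-sired NAC, so that the MOR-sired range enclosed the SAL-sired one. The other 8 genes lay between −0.13 (Grk3, SE 0.28) and 0.04 (Arrb2, SE 0.13). Grk6 was held most tightly, at −0.01 (95% interval −0.11 to 0.09), and Grk3 least, with an interval of −0.72 to 0.45. With the striatal marker score as a covariate, Grk3 was at −0.43 (SE 0.19, adjusted p = 0.304) and Grk2 at −0.19 (SE 0.06, adjusted p = 0.192), against −0.06 (SE 0.11) for Grk2 without it.

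A direct test found no difference between the regions in the sire effect for any of the 10 genes, nor for any of 20603 genes (0%) with edgeR, with 984 at an unadjusted p under 0.05. DESeq2 called 97 genes and limma-voom 0, none of them among the 10. The largest of the 10 was again Rgs4, at −0.43 (SE 0.33, adjusted p = 1), and it was 0.06 (SE 0.18) without SAL-sired VTA 2 and −0.63 (SE 0.44) without the 4 libraries with Xist. Without those libraries Arrb2 was at −0.21 (SE 0.24) and Rgs7 at −0.20 (SE 0.18). Grk5 was at 0.00 (SE 0.10, 95% interval −0.21 to 0.21), with −0.16 in VTA and −0.14 in NAC. The paralogue ratios also overlapped between sire groups. The ratio of Grk6 to Grk5 was 3.51 to 4.34 in MOR-sired and 2.92 to 4.25 in SAL-sired VTA, and 2.51 to 3.26 in MOR-sired and 2.46 to 3.16 in SAL-sired NAC.

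The rest of the pathway gave 0 calls in each sire comparison, over 99 genes tested in VTA and 100 in NAC, and for the difference between regions. The median log2 fold change over these genes was −0.01 in VTA, −0.04 in NAC and 0.05 for the difference, against −0.01, 0.00 and 0.00 over all genes. The genes of smallest p per list in VTA were the dynamin Dnm2 (0.12, SE 0.03, adjusted p = 0.793), Mapk3 (0.17, SE 0.07), Adcy9 (−0.18, SE 0.08), Gnb4 (0.14, SE 0.07), Rgs16 (−0.18, SE 0.11), the nociceptin receptor Oprl1 (−0.09, SE 0.09) and Arrdc4 (−0.11, SE 0.15). In NAC they were Rgs5 (−0.17, SE 0.06, adjusted p = 0.607), Gnb3 (0.78, SE 0.27), Arrdc4 (0.25, SE 0.10), Ap2a2 (−0.10, SE 0.06), the potassium channel Kcnj5 (−0.18, SE 0.11), Prkcb (−0.13, SE 0.08) and Oprm1 (−0.44, SE 0.33). For the difference between regions they were Rgs5 (0.36, SE 0.12, adjusted p = 0.866), Gnb4 (0.36, SE 0.14), Camk2a (−0.76, SE 0.35), Arrdc4 (−0.35, SE 0.17), Dnm2 (0.10, SE 0.06), Plcb1 (0.15, SE 0.12) and Oprm1 (0.47, SE 0.45).

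The NAC punches differed in their content of striatal transcript, and 7 of the 10 genes moved with it. The third comparison fitted the slope of each gene on a striatal score, the mean log2 CPM of 12 medium spiny neuron markers, with sire as a covariate. None of the 10 genes is in that list. The score, centred at 0, ran from −2.60 in MOR-sired NAC 2 to 1.64 in MOR-sired NAC 4 and averaged −0.35 ± 1.68 in MOR-sired and 0.35 ± 0.74 in SAL-sired NAC (SD, n = 7 each). Of the 10 genes, 7 had a slope that passed, 5 falling and 2 rising with the score. Slopes passed for 32.8% of 18220 genes, 16.6% rising and 16.1% falling.

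Falling with the striatal score were Grk3, Rgs4, Arrb2, Grk2 and Rgs7. Grk3 had the steepest slope, −0.35 log2 units per unit of score (SE 0.08, adjusted p = 0.00518). It had 37.1 CPM in MOR-sired NAC 2, at the low end of the score, and 8.59 CPM in MOR-sired NAC 4, at the high end. Rgs4 (−0.18, SE 0.03), Arrb2 (−0.18, SE 0.03), Grk2 (−0.16, SE 0.02) and Rgs7 (−0.14, SE 0.02) fell together at less than that rate, with adjusted p values between 0.000138 and 0.000337. Without MOR-sired NAC 4 the slope of Grk3 was −0.24 (SE 0.06, adjusted p = 0.00788) and that of Rgs4 −0.16 (SE 0.03).

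Rising with the score were Gnb5 and Rgs7bp, so the 3 genes of the Rgs7 complex split. Gnb5 rose by 0.20 per unit (SE 0.02, adjusted p = 2.25e-05). It was lowest in MOR-sired NAC 2 (119.6 CPM) and highest in MOR-sired NAC 4 (235 CPM). Rgs7bp rose by 0.12 (SE 0.04, adjusted p = 0.0302), and this call was lost without SAL-sired NAC 3 (adjusted p = 0.0609), MOR-sired NAC 1 (0.0681), MOR-sired NAC 6 (0.0621) or MOR-sired NAC 7 (0.0714). Grk5 at 0.06 (SE 0.02, adjusted p = 0.071), Arrb1 at 0.01 (SE 0.02) and Grk6 at −0.02 (SE 0.02) did not pass, and Grk5 did without SAL-sired NAC 6 (adjusted p = 0.0312).

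The cortical marker sum ran largely opposite to the striatal one. On a cortical glutamatergic score in place of the striatal score, the 7 slopes had the other sign: 0.71 for Grk3, 0.28 for Arrb2, 0.27 for Rgs4 and for Grk2, 0.20 for Rgs7, −0.30 for Gnb5 and −0.14 for Rgs7bp. The last of these did not pass (adjusted p = 0.117). Which of these cell types the change follows cannot be told apart in these punches.

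**Figure D4:**
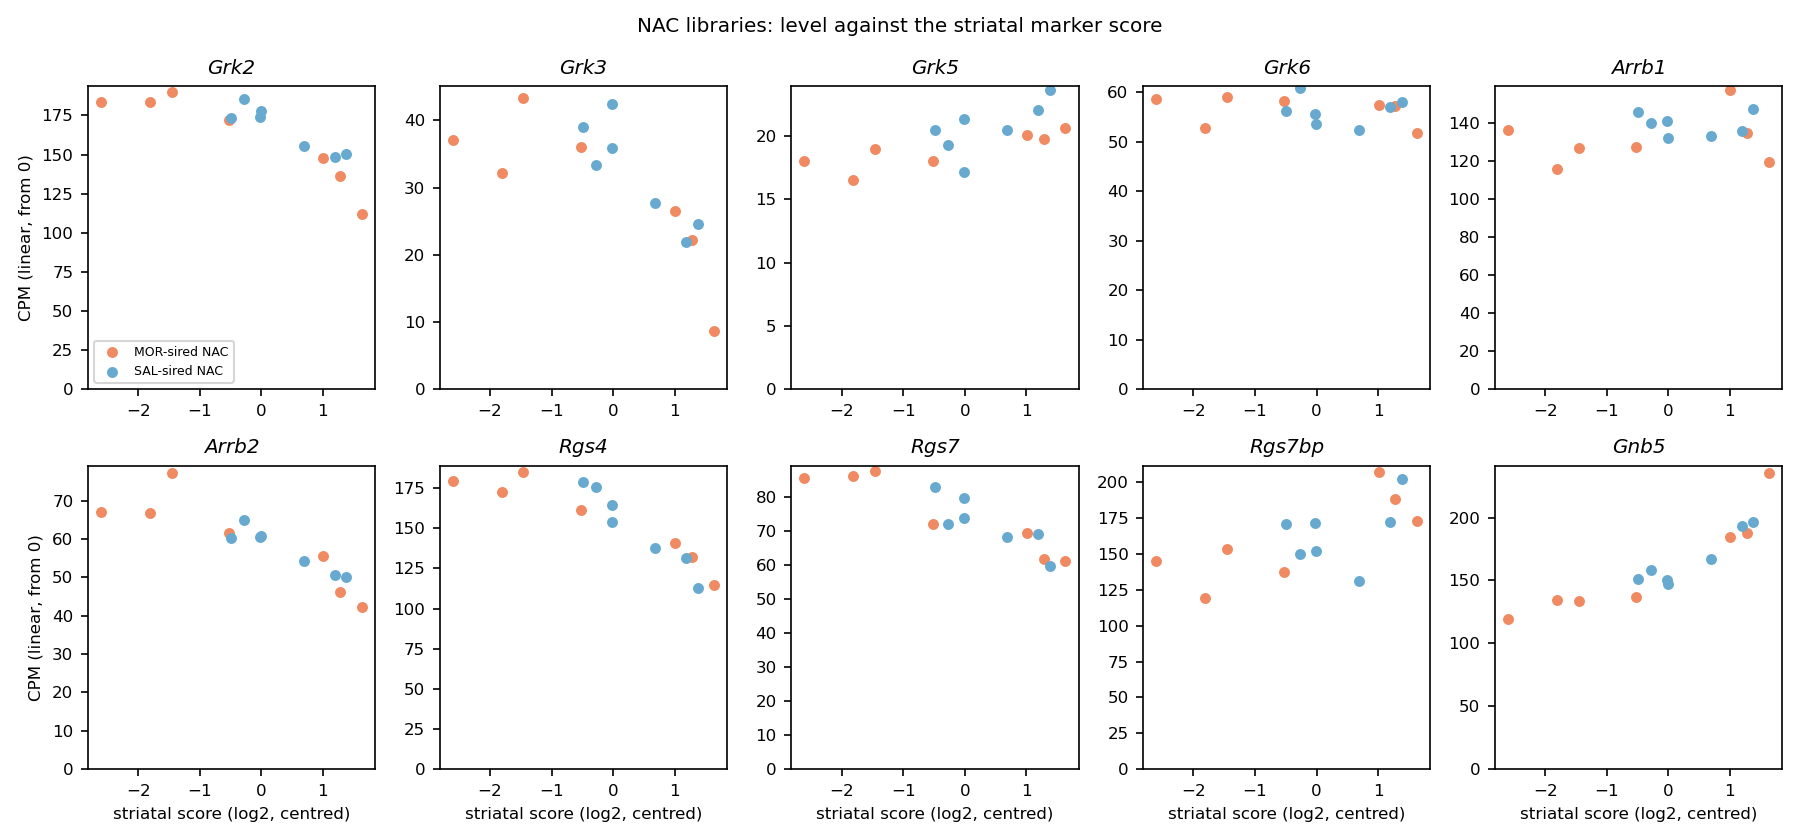
CPM of each gene (linear axes from 0) against the centred striatal score (log2) in the 14 NAC libraries, MOR-sired and SAL-sired. Grk3, Rgs4, Arrb2, Grk2 and Rgs7 fall with the score and Gnb5 climbs to 235 CPM in the library with the highest score, while the slopes of Grk6 (−0.02) and Arrb1 (0.01) are near 0.

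In VTA the same kind of slope was fitted on the dopamine neuron score. Grk3 was the single gene of the 10 that passed, with 0.59 log2 units per unit of score (SE 0.07, adjusted p = 0.00429), where 0.979% of 19923 genes passed and 0.848% rose. The score ran from −0.67 in SAL-sired VTA 3, where Grk3 was at 36.0 CPM, to 0.46 in SAL-sired VTA 5, where it was at 51.8 CPM. Within the MOR-sired libraries the lowest score, −0.21 in MOR-sired VTA 2, went with the lowest Grk3 level, 29.1 CPM. The slope kept its direction but did not pass without SAL-sired VTA 5 (0.60, SE 0.09, adjusted p = 0.0575) or without the 4 libraries with Xist (0.48, SE 0.09, adjusted p = 0.205), and the 3 highest scores belong to those libraries.

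The other 9 genes did not pass in VTA. Gnb5 (0.23, SE 0.09, adjusted p = 0.395) and Rgs7bp (−0.25, SE 0.12, adjusted p = 0.532) had the next smallest p values, with opposite signs. Rgs4 was at −0.07 (SE 0.58), and at 0.12 (SE 0.11) without SAL-sired VTA 2. Of the 99 other pathway genes tested, 4 rose with the score and 0 fell. The 4 were Gpr158, a receptor that binds the Rgs7 and Gnb5 pair (0.76, SE 0.05), the kinase Prkca (0.71, SE 0.11), the potassium channel Kcnj6 (0.69, SE 0.08) and Rgs8 (0.62, SE 0.09). Without the 4 libraries with Xist no gene of the 20118 tested had a slope that passed.

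**Figure D5:**
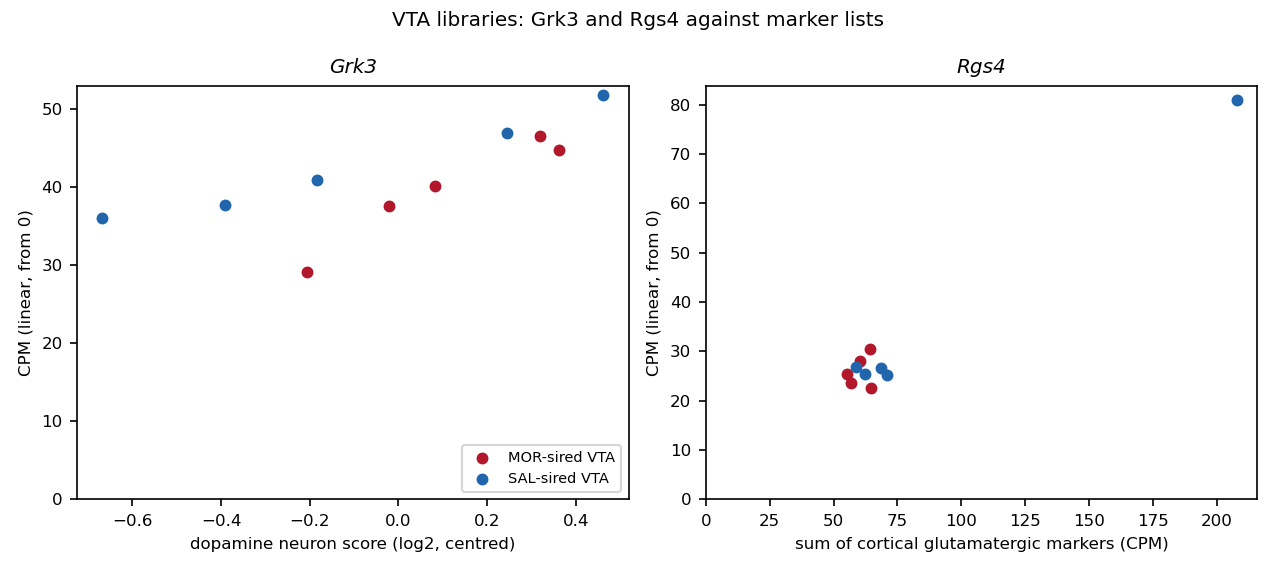
Left, Grk3 CPM against the centred dopamine neuron score (log2) in the 10 VTA libraries; right, Rgs4 CPM against the summed CPM of 10 cortical glutamatergic markers. Grk3 climbs with the score in both sire groups, and the single Rgs4 value of 80.9 CPM belongs to the library with 208 CPM of cortical markers.

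The 10 genes differed in how steady they were from library to library. In NAC Grk3 was the most variable, with an SD of log2 CPM of 0.61, above 86.4% of the genes tested, and Grk6 the steadiest, with 0.08, above 5.97%. In VTA Rgs4 was the most variable (0.51, above 84.1%), which again includes SAL-sired VTA 2, and Grk6 and Grk2 were the steadiest, both at 0.10. As a description with no test, the genes whose log2 CPM followed a member most closely were sought among 14129 NAC and 14289 VTA genes. Grk3 in the 14 NAC libraries went with Vxn (r = 0.991, rho = 0.934), Nptx1 (r = 0.989, rho = 0.943) and Tbr1 (r = 0.988, rho = 0.912), and the last 2 are on the cortical marker list. Gnb5 in NAC went with Grb10 (r = 0.983), Gphn (0.982) and Arpc1a (0.980), and Rgs4 with Rab4a (0.977) and Vps37d (0.961). In the 10 VTA libraries Grk3 went with Atp2a3 (r = 0.972), Col25a1 (0.963) and Cntn4 (0.961), and Rgs7bp with Hapln4 (0.966), Clec2l (0.944) and Atp2b2 (0.942). Libraries of a region share the variation in punch content described above, and for Rgs4 in VTA the likeness to Nr4a3 (r = 0.963, rho = 0.527), Shisa8 (r = 0.941, rho = 0.576) and Kalrn (r = 0.937, rho = 0.188) holds in r but much less in rho, with SAL-sired VTA 2 far from the other libraries.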

How the data were processed

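Per the labels' protocols, bilateral punches were frozen, total RNA was extracted with Qiazol and a column, and libraries were made with a directional kit. Per the submitters' processing notes, Trim Galore, kallisto and DESeq2 were used. The deposited tables hold an estimated count for each gene and library, which per the file names the authors obtained by scaling TPM to each library's total. They are not read numbers. Neither build nor annotation is given in the sources used here.

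Estimated counts were rounded, filtered with filterByExpr, scaled by TMM and tested with edgeR 4.0.16 (quasi-likelihood) in R 4.3.3, with Benjamini-Hochberg adjustment over all genes tested and calls at an adjusted p under 0.05. DESeq2 1.42.0 and limma 3.58.1 were alternatives. Printed CPM are scaled by library totals only. VTA and NAC were joined in 1 fit with 4 group means, and sire effects were fitted within a region. The code was tested on simulated data. Within each group no library duplicated another, since the smallest chi-square per degree of freedom between replicates of a group was 13.7.

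The members, the pathway and marker lists and the tests were chosen with earlier results of these data known. In each pathway list the gene of smallest p is named in sire comparisons, and the 2 largest called genes with a mean of at least 1 CPM in the others. The genes of closest pattern are the 3 of highest r for the 3 most variable members of a region, and 1 of them is not reported here. Libraries with Xist were those above 10 CPM of Xist and under 1 CPM of Ddx3y.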

Additional observations from a re-analysis of the deposited data

Results flagged for a closer look

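Within each of 60 groups (40 of levels and 20 of ratios between members), the highest and lowest library was set against the others, and 3 stood apart by Dixon's criterion. Chance flags about 1 in 20 groups. Rgs4 in SAL-sired VTA 2 was at 80.9 CPM, against 25.2 to 26.8 CPM in the other 4 SAL-sired VTA libraries. The ratio of Grk3 to Grk2 in MOR-sired NAC 4 was 0.0765, against 0.163 to 0.228 in the other 6 MOR-sired NAC libraries, and that library had the highest striatal score and the lowest cortical marker sum, 191 CPM. The ratio of Rgs7bp to Rgs7 in SAL-sired NAC 3 was 3.39, against 1.92 to 2.49 in the other 6 SAL-sired NAC libraries, and that library had the highest striatal score of its group, 1.38. The part of punch content in these values was not tested.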

How the results depend on the processing

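Across scaling, filters, tools, covariates and libraries left out in turn, 0 of the 10 genes was called in 240 alternative values for the sire effect in NAC, 210 in VTA and 320 for their difference (lowest adjusted p 0.192, 0.64 and 0.616). The sign was opposite in 25, 19 and 29 of these, all uncalled. In place of 0 genes called, there were 4 (DESeq2) and 52 (limma-voom) in NAC, 30 (DESeq2) in VTA, and 97 (DESeq2) and 7 (without the libraries with Xist) for the difference. Total-count scaling put the median of all genes at −0.11 in the difference. For VTA against NAC, 6 to 8 members were called when 1 library was left out. With replicate number as a block, 0 genes were called in each sire comparison, and 13335 genes and 6 members between regions. It changed no member's call. Same-numbered libraries share only a number: their deviations from the group means gave r between −0.26 and 0.13, and 0 of 7 NAC and 1 of 5 VTA pairs correlated best with their own number. Grk3 was also called between regions with total-count scaling (adjusted p = 0.0404) and a filter at 1 CPM (0.0463).

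With the cortical score, slopes in NAC were 0.27 (Grk2), 0.71 (Grk3), 0.28 (Arrb2), 0.27 (Rgs4), 0.20 (Rgs7), −0.14 (Rgs7bp) and −0.30 (Gnb5). Leaving out 1 library gave 3884 (without MOR-sired NAC 4) to 6385 genes called. The Rgs7bp call was also lost with no filter (adjusted p = 0.0524) and without the 2 extreme libraries (0.153). Grk5 was called with total-count scaling (0.0432), no sire term (0.0415) and a library-number term (0.0155). For the VTA slope, 195 genes became 539 with DESeq2, 122 with total-count scaling, 0 without the libraries with Xist, 0 without the 2 extreme libraries (members called 0 in both) and 52 to 193 with 1 library left out (members called 0 to 1). The extreme-library and library-number alternatives were chosen after seeing the data. The causes were not tested.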

Other observations

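Other genes of the pathway also moved with the striatal score in NAC. Of 100 pathway genes tested, 20 rose with the score, 38 fell and 42 did not pass, where 16.6% of all genes rose and 16.1% fell. Rgs9, the R7 protein of striatum, rose by 1.14 per unit of score (SE 0.02), Gng7 by 0.95 (SE 0.03), Adcy5, the striatal adenylyl cyclase, by 0.66 (SE 0.03), the kappa opioid receptor Oprk1 by 0.61 (SE 0.04), Rgs8 by 0.55 (SE 0.02), the mu opioid receptor Oprm1 by 0.46 (SE 0.06) and Prkcd by 0.31 (SE 0.04). Falling were the potassium channel subunit Kcnj6 at −0.54 (SE 0.10), Gng2 at −0.35 (SE 0.05), Mapk8 at −0.20 (SE 0.04), the dynamin Dnm1 at −0.16 (SE 0.03), Ap2s1 at −0.14 (SE 0.03) and Arrdc1 at −0.11 (SE 0.02). Of the 4 opioid receptor genes tested, 2 rose (Oprk1 and Oprm1), 1 fell and 1 did not pass. Oprk1, Oprm1 and Rgs9 thus rose with the score, while Grk2, Grk3, Arrb2, Rgs4 and Rgs7 fell. Gnb5 (0.20) and Rgs7bp (0.12) rose as well, and the slopes of Grk5, Grk6 and Arrb1 did not pass.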
